A study of Homo sapiens with 4 samples.

Results

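The 10 genes of glucose uptake and breakdown described here are known targets of hypoxia-inducible factor 1 (HIF-1). They were examined in the 3 peak lists of the series, among the 20163 protein-coding genes of the annotation. They were chosen for their place in this pathway, with earlier results of these data known. The 10 members are the transporter SLC2A1, the enzymes GPI, ALDOA, GAPDH, PGK1, ENO1 and LDHA, the regulators PFKFB3 and PFKFB4, and the kinase PDK1. Binding was measured by ChIP-seq, in which DNA fragments pulled down with an antibody are sequenced. HAUSP (USP7), a deubiquitinase, was precipitated from MDA-MB-231, an established breast cancer line, and from H1299, an established lung cancer line. HIF-1α was precipitated from H1299 alone. Both lines grew in DMEM with 10% fetal bovine serum, and the oxygen level of the cultures used for ChIP-seq is not given in the sources used here. Each list came from 1 library, so no value below has a replicate error and no difference was tested. Where the lists differ, the cell line, the antibody, the depth and the library cannot be told apart. An H1299 input library was not analysed here.

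HIF-1 is a dimer of HIF-1α and HIF-1β that accumulates when oxygen is low and binds a short core, ACGTG or GCGTG, in hypoxia response elements. In tumour cells it is known for raising the transcription of genes that take up glucose and turn it into lactate. SLC2A1 carries glucose into the cell. GPI, ALDOA, GAPDH, PGK1 and ENO1 catalyse consecutive or near-consecutive steps towards pyruvate, and LDHA reduces pyruvate to lactate. PFKFB3 and PFKFB4 set the level of fructose 2,6-bisphosphate, the activator of phosphofructokinase, and PDK1 is a mitochondrial kinase that inhibits pyruvate dehydrogenase, which turns pyruvate into acetyl-CoA.

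HIF-1α peaks were found at 7 of the 10 genes: GPI, PFKFB4, ALDOA, GAPDH, PGK1, ENO1 and LDHA. A peak was assigned to a gene when any base of it lay in the annotated gene or within 20 kb of its transcription start site (TSS). By the same rule 9.55% of all protein-coding genes had a HIF-1α peak. HAUSP peaks of H1299 were found at 5 members, PFKFB4, ALDOA, PGK1, ENO1 and LDHA, against 6.30% of all protein-coding genes. HAUSP peaks of MDA-MB-231 were found at 8 members, which are the 7 genes with a HIF-1α peak and PFKFB3, against 4.16% of all protein-coding genes. Peaks of HIF-1α together with HAUSP of H1299 were found at 5 members, against 1.14% of all protein-coding genes, and together with HAUSP of MDA-MB-231 at 7, against 0.823%. Peaks of all 3 lists were found at 5 members, against 0.496%, and a peak of any list at 8, against 16.8%. SLC2A1 and PDK1 had none.

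Most of these peaks were at promoters, defined as 500 bp on either side of the TSS. Those at the promoter of their gene were 6 of 8 for HIF-1α, 5 of 6 for HAUSP of H1299 and 6 of 9 for HAUSP of MDA-MB-231. Over all peaks, 1.83%, 26.2% and 7.89% of these lists were at the promoter of any protein-coding gene. These shares also count peaks far from any gene, whereas member peaks lay in a gene or within 20 kb of its TSS. They are therefore not a like-for-like background. The share among peaks assigned to any gene, or among those of high score, was not computed. HIF-1α peaks touched the promoter of 6 members, against 0.412% of all protein-coding genes. These 6 genes are among 83 protein-coding genes with a HIF-1α peak at the promoter. HAUSP peaks of H1299 touched 5 member promoters, against 2.15% of all, and those of MDA-MB-231 touched 6, against 0.615%. PFKFB4, ALDOA, PGK1, ENO1 and LDHA had peaks of all 3 lists at the promoter, which 36 protein-coding genes, or 0.179%, did. A promoter peak of HIF-1α together with HAUSP of H1299 was found at the same 5 members, against 0.312% of all, and together with HAUSP of MDA-MB-231 at 6, against 0.188%. A promoter peak of any list was found at 6 members, against 2.49%. Known HIF-1 targets were chosen as members, so these counts describe the lists and are no test of them.

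The sequences around the ACGTG nearest to the centre of the HIF-1α peak of each of the 7 genes are shown so that the cores counted below can be read in place. From here on, core means ACGTG alone. Each is 29 bases of hg19 on the strand that reads ACGTG, which is in capitals. For PGK1 and LDHA a pair of neighbouring cores is shown.
GPI: ctgaccacccggACGTGctggcccacacg
PFKFB4: gggacgaggcctACGTGacccgcacggcc
ALDOA: cacccccctcggACGTGactcggaccaca
GAPDH: gaggcctgagctACGTGcgcccgtaaaac
PGK1 left: gcggcgtgccggACGTGacaaacggaagc
PGK1 right: ggtactagtgagACGTGcggcttccgttt
ENO1: gtcgagggccggACGTGgggccccagagc
LDHA left: agcccgactcacACGTGggttcccgcacg
LDHA right: gggggccggcggACGTGcgggaacccacg

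These stretches lie at chr19:34850329-34850357 on the plus strand for GPI, chr3:48594704-48594732 on the plus strand for PFKFB4, and chr16:30076871-30076899 on the minus strand for ALDOA. That of GAPDH is chr12:6643547-6643575 on the minus strand. Those of PGK1 are chrX:77359531-77359559 on the plus strand and chrX:77359550-77359578 on the minus strand, so that the pair of cores faces each other. That of ENO1 is chr1:8939137-8939165 on the minus strand, and those of LDHA are chr11:18416012-18416040 on the plus strand and chr11:18416025-18416053 on the minus strand. The ENO1 core lies in an exon of other ENO1 transcripts, and the other cores shown lie in no annotated exon.

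**Figure D1:**
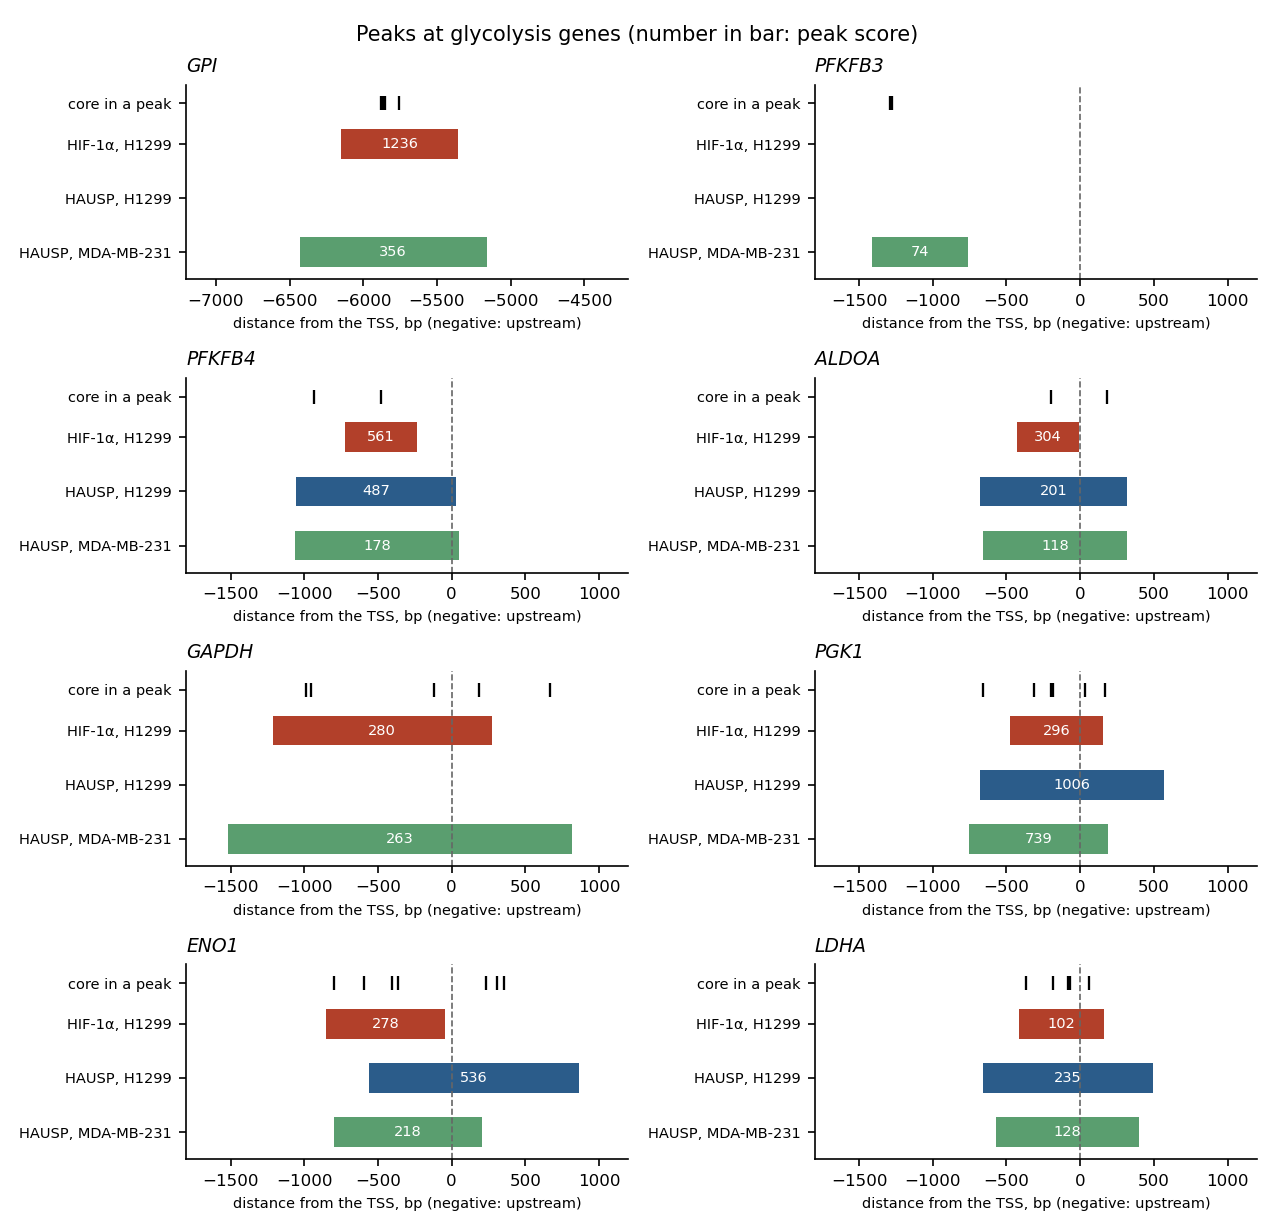
Peaks at the 8 members that have any, as bars along the distance from the TSS in bp (dashed line, negative upstream, read along the gene). There is 1 row for each list, with the peak score in the bar. Panels show only the stretch around the TSS, or for GPI a stretch upstream of it without the TSS line. The intronic GPI peak and the distal ALDOA and PGK1 peaks are not drawn. Black ticks mark cores inside a peak of any list; the HIF-1α bar lies within a HAUSP bar at each promoter except that of ENO1, where it is displaced upstream, and the rows of HAUSP in H1299 are empty for GPI, PFKFB3 and GAPDH.

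Member peaks were among the highest of the HIF-1α list. The score is that of MACS 1.4, by its convention 10 times the negative log10 of the p-value, and the lowest score was 50.02 in the HIF-1α list and 50.03 in the HAUSP list of H1299. Scores depend on depth, which was not analysed here, so peaks are compared by rank within a list. Of the HIF-1α peaks ranked 1 to 20, 6 belonged to members, and 7 of the 81 that scored 100 or more did. With this minimum score, members with a peak numbered 7 for HIF-1α, 5 for HAUSP of H1299 and 7 for HAUSP of MDA-MB-231, against 0.506%, 1.38% and 1.07% of all protein-coding genes. The median score of the 8 member peaks was 287.8, against 56.4 for all 4054 HIF-1α peaks. In the HAUSP list of H1299 the 6 member peaks had a median score of 361.1 against 71.0 for all 1379, and in that of MDA-MB-231 the 9 member peaks had 178.3 against 75.7 for all 1343.

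**Figure D2:**
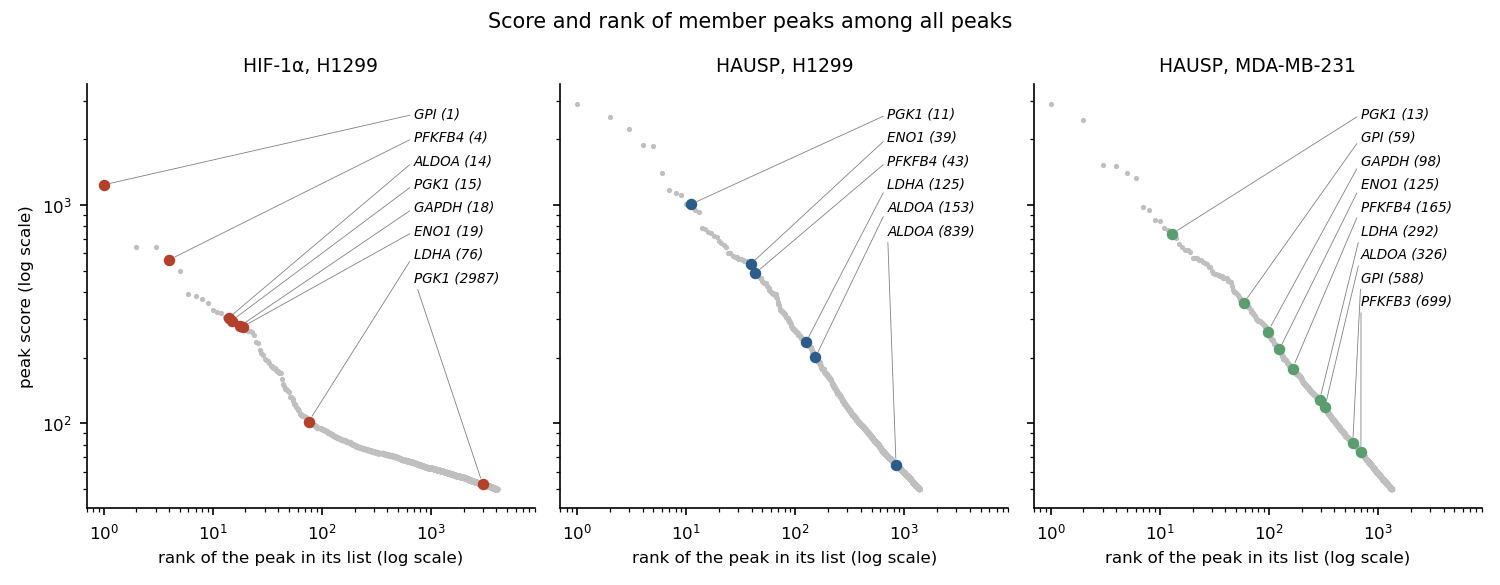
Score of each peak (log scale) against its rank in its list (log scale), with all peaks in grey and member peaks in colour, each labelled with the gene and its rank. In the HIF-1α list 6 member peaks lie at ranks 1 to 19, LDHA at 76 and the distal peak in the annotated body of PGK1 at 2987.

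GPI, which interconverts glucose 6-phosphate and fructose 6-phosphate, had the highest score of the whole HIF-1α list. GPI lies on the plus strand of chromosome 19 (34850385 to 34893318) and its main TSS, that of the MANE Select transcript, is at 34856101. The HIF-1α peak ran from 34849953 to 34850745 and scored 1235.87. Its centre was at -5752 bp from the main TSS, so the peak was not counted as a promoter peak. It held the starts of 3 other GPI transcripts and that of the lncRNA ENSG00000267219, and it became a promoter peak when the TSS of any transcript was accepted. The HAUSP peak of MDA-MB-231 spanned 34849671 to 34850938, with a score of 356.02 and rank 59, and covered 100% of the HIF-1α peak, with the centres 45 bp apart. In H1299 the nearest HAUSP peak to the TSS was 286760 bp away, with a score of 53.09. The HIF-1α peak held 4 cores, of which the one shown above was 6 bp from the peak centre, and flanks of the same width 2000 bp to either side held 0. MDA-MB-231 also had a HAUSP peak of score 81.12 in an intron of the main GPI transcript, from 34881870 to 34883561. This peak held the start of another GPI transcript, with no core and no HIF-1α peak.

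PFKFB4 and PFKFB3 encode bifunctional enzymes of the same family. PFKFB4 had a peak in all 3 lists, and PFKFB3 only in that of HAUSP in MDA-MB-231. PFKFB4 lies on the minus strand of chromosome 3 (48555117 to 48599448), with its TSS at 48594236. Its HIF-1α peak ran from 48594472 to 48594958 and scored 561.08, rank 4. The HAUSP peaks spanned 48594204 to 48595293 in H1299 (score 487.34, rank 43) and 48594184 to 48595299 in MDA-MB-231 (score 178.31, rank 165). Both covered the whole HIF-1α peak, with centres 33 and 26 bp from its centre, and 100% of the H1299 peak lay inside that of MDA-MB-231. The HIF-1α peak held 1 core, at -482 bp from the TSS and 3 bp from the peak centre, the smallest distance of any member. The promoter, which carries all 3 peaks, lies inside the annotated gene, since other PFKFB4 transcripts start up to 5212 bp further upstream. PFKFB3 lies on the plus strand of chromosome 10 (6186897 to 6296607), with its TSS at 6244895. Its only peak was that of HAUSP in MDA-MB-231, from 6243484 to 6244133, with a score of 74.05 and rank 699. The near edge was 762 bp upstream of the TSS, and the peak held 2 cores at -1287 and -1278 bp. The nearest HIF-1α peak was 1411514 bp from the PFKFB3 TSS and the nearest HAUSP peak of H1299 was 2734633 bp away.

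ALDOA, the aldolase that splits fructose 1,6-bisphosphate, had promoter peaks in all 3 lists. It lies on the plus strand of chromosome 16 (30075485 to 30081778), with its TSS at 30077081. The HIF-1α peak ran from 30076652 to 30077072, ending 9 bp before the TSS, and scored 303.77, rank 14. The HAUSP peaks spanned 30076400 to 30077398 in H1299 (score 200.59, rank 153) and 30076424 to 30077398 in MDA-MB-231 (score 118.21, rank 326), and both covered the whole HIF-1α peak. The single core of the HIF-1α peak was at -196 bp and 23 bp from the peak centre. Another core at 185 bp after the TSS lay inside both HAUSP peaks and outside the HIF-1α peak. A further HAUSP peak of H1299 with a score of 64.81, from 30056397 to 30057236, came under the rule by a small margin, with its near edge 19845 bp from the TSS. Its centre lies in the gene TLCD3B. No peak of any list lay between 20 and 50 kb from the TSS of a member and outside its gene.

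GAPDH, which oxidises glyceraldehyde 3-phosphate, had peaks of HIF-1α and of HAUSP in MDA-MB-231, and no HAUSP peak in H1299. It lies on the plus strand of chromosome 12 (6643678 to 6647540), with its TSS at 6643683. The HIF-1α peak ran from 6642468 to 6643956 and scored 280.04, rank 18. At 1489 bp it was the widest of the member HIF-1α peaks, whose median width was 609 bp. The HAUSP peak of MDA-MB-231 spanned 6642168 to 6644499, with a score of 263.0 and rank 98, and covered 100% of the HIF-1α peak. The nearest HAUSP peak of H1299 was 1102753 bp from the TSS. The HIF-1α peak held 4 cores, at -989, -957, -122 and 188 bp from the TSS, with the nearest 349 bp from the peak centre, the largest distance for ACGTG among the 7 genes. A GCGTG lay within 100 bp of the centre of this peak. It also held the TSS of GAPDH-DT, a lncRNA, and its flanks held 2 cores on average.

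PGK1, the kinase that makes ATP from 1,3-bisphosphoglycerate, had the highest HAUSP scores of the members in both lines. Its promoter is on the plus strand of chromosome X, with the TSS at 77359745. The HAUSP peaks spanned 77359063 to 77360312 in H1299 (score 1006.44, rank 11) and 77358992 to 77359936 in MDA-MB-231 (score 738.53, rank 13). The HIF-1α peak ran from 77359267 to 77359900, scored 295.54, rank 15, and lay wholly inside both. The pair of cores shown above was at -200 and -181 bp, 38 and 19 bp from the centre of the HIF-1α peak, and other cores of that peak were at -315 and 30 bp. The 121 bases around the centre, chrX:77359523-77359643 on the strand of the gene, show how the pair is placed, with the left core in capitals as ACGTG and the right core in capitals as its complement CACGT.
PGK1 centre: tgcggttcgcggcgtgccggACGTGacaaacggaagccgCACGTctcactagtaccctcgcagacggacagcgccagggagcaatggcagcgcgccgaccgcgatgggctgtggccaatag

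The annotated PGK1 gene starts 193509 bp further upstream, at 77166236, and includes part of ATP7A. For this reason a low HIF-1α peak from 77232939 to 77233470 (score 52.74, rank 2987) came under the rule although it lies 126275 bp from the TSS. Its centre is in ATP7A. It held no ACGTG, had a GC content of 35.0% (median of all HIF-1α peaks 36.6%) and overlapped no HAUSP peak. The 4 peaks of PGK1 and the 2 of GAPDH were the member peaks with a gap of the assembly, 50 kb or longer, less than 1 Mb away. Whether that bears on their scores was not tested.

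ENO1, which makes phosphoenolpyruvate, was the gene at which the HIF-1α and HAUSP peaks of H1299 were most displaced from each other. ENO1 lies on the minus strand of chromosome 1 (8921059 to 8939249), with its TSS at 8938745. The HIF-1α peak ran from 8938788 to 8939597 (score 277.52, rank 19), with its centre at -447 bp. The HAUSP peak of H1299 spanned 8937882 to 8939303 (score 535.84, rank 39), with its centre 153 bp after the TSS, and covered 63.7% of the HIF-1α peak. The HAUSP peak of MDA-MB-231 spanned 8938538 to 8939546 (score 218.09, rank 125), with its centre at -297 bp, and covered 93.7% of it. Of the 4 cores in the HIF-1α peak, those at -361 and -406 bp lay inside all 3 peaks. Those at -597 and -795 bp lay outside the H1299 HAUSP peak and inside that of MDA-MB-231. The H1299 HAUSP peak held 3 more cores after the TSS, at 230, 310 and 356 bp, where neither of the other lists had a peak. The TSS of the lncRNA ENO1-AS1 lies inside all 3 peaks.

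LDHA had the lowest score of the 7 genes in the HIF-1α list, apart from the distal peak of PGK1, and the most cores. It lies on the plus strand of chromosome 11 (18416107 to 18429972), with its TSS at 18416110. The HIF-1α peak ran from 18415692 to 18416275 (score 101.93, rank 76), just above the score of 100 used as a stricter minimum. The HAUSP peaks spanned 18415452 to 18416602 in H1299 (score 234.8, rank 125) and 18415537 to 18416508 in MDA-MB-231 (score 127.51, rank 292), and both covered the whole HIF-1α peak. The HIF-1α peak held 5 cores, at -367, -183, -85, -71 and 63 bp. The pair shown above was 42 and 56 bp from the centre of the HIF-1α peak, and its left core was 1 and 3 bp from the centres of the HAUSP peaks of H1299 and MDA-MB-231.

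SLC2A1 and PDK1 are at the entry and the exit of the pathway and had no peak in the gene or within 20 kb. SLC2A1 lies on the minus strand of chromosome 1 (43391024 to 43424564). The nearest HIF-1α peak was 229898 bp from its TSS (score 53.74), and the nearest HAUSP peaks were 188729 bp away in H1299 and 2796898 bp away in MDA-MB-231. PDK1 lies on the plus strand of chromosome 2 (173420101 to 173473397). Its TSS was 135721 bp from the nearest HIF-1α peak (score 55.11), 3444914 bp from the nearest HAUSP peak of H1299 and 1635462 bp from that of MDA-MB-231. Read depth was not analysed here, so a missing peak says only that none passed the threshold of the caller. In MDA-MB-231 the study itself reported HAUSP at the promoter and in the body of SLC2A1 (Glut1), measured by PCR after ChIP.

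At the 5 genes with peaks in all 3 lists the HAUSP peaks ranked higher in H1299 than in MDA-MB-231. The ranks were 11 against 13 for PGK1, 39 against 125 for ENO1, 43 against 165 for PFKFB4, 125 against 292 for LDHA and 153 against 326 for ALDOA. The lists are of like length, 1379 and 1343 peaks, but differ in make-up. The peaks compared were all at promoters. Peaks at a protein-coding promoter made up 26.2% of the H1299 list and 7.89% of that of MDA-MB-231. The ranks of other promoter peaks found in both lines were not compared, so the order is not shown to be particular to these genes. Of the 9 member peaks of HAUSP in MDA-MB-231, 5 overlapped a HAUSP peak of H1299, against 40.7% of all peaks of that list and 70.7% of those scoring 100 or more. The HAUSP peaks of MDA-MB-231 at GPI and GAPDH, with ranks 59 and 98, ranked higher in their list than those at ENO1, PFKFB4, LDHA and ALDOA, and had no counterpart in H1299.

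More of the member HIF-1α peaks overlapped HAUSP of MDA-MB-231 than HAUSP of H1299, the line in which HIF-1α was measured. With HAUSP of MDA-MB-231, 7 of the 8 member peaks overlapped, against 1.63% of all HIF-1α peaks and 56.8% of those scoring 100 or more. With HAUSP of H1299, 5 of the 8 did, against 2.71% of all and 69.1% of those scoring 100 or more. Across the genome 66 HIF-1α peaks shared bases with HAUSP of MDA-MB-231, and 63 of them did so with HAUSP of H1299 as well. The 3 that did not were the peaks at GPI, GAPDH and PGAM1, a phosphoglycerate mutase that acts between PGK1 and ENO1 and was on the list of other glycolysis genes. Of the HIF-1α peaks ranked 1 to 20, 18 shared bases with HAUSP of H1299, and the 2 without were GPI and GAPDH. The HAUSP list of H1299 held 113 peaks on chromosome 19, 87 on chromosome 12 and 55 on chromosome 10. These counts do not show the depth at the 3 places, which was not analysed here. Among HAUSP peaks of MDA-MB-231 with at least the score of the GAPDH peak, 7 of 98 overlapped no HAUSP peak of H1299. Without those near an assembly gap, which leaves out the GAPDH peak itself, 5 of 32 overlapped none. The number of 3 was noticed in these lists and was not tested.

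Within the HIF-1α peaks of the members the core was frequent. ACGTG, searched on both strands with the palindrome CACGTG counted at 1 place, was present in 7 of the 8 peaks, all but the distal peak of PGK1. It was present in 20.7% of all HIF-1α peaks, in 76.5% of those scoring 100 or more and in 18.5% of flanks of the same width. The 7 peaks held 23 cores, and the flanks of the 8 peaks held 3 in sum, taken as the mean of the 2 sides. Within 100 bp on either side of the peak centre, 6 of the 8 held ACGTG, against 8.46% of all HIF-1α peaks, 54.3% of those scoring 100 or more and 15.9% of windows of that length at the TSS of protein-coding genes. The nearest core was within 50 bp of the centre in the same number of peaks, against 4.49% of all HIF-1α peaks, 30 of the 81 scoring 100 or more and 45.0% of those ranked 1 to 20. All 23 cores lay in a HAUSP peak of MDA-MB-231. Of the 15 cores at the 5 genes with a HAUSP peak of H1299, 13 lay inside that peak, and the 2 others were at ENO1. Both counts follow largely from the overlap of the peaks. The overlapping HAUSP peaks covered from 63.7% (ENO1, H1299) to 100% of each HIF-1α peak.

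The number of cores in a promoter did not fully separate members with a HIF-1α peak at that promoter from those without. GPI counts among those without, since its HIF-1α peak was not at the main promoter. Within 500 bp on either side of the TSS, LDHA, PGK1 and ENO1 held 5 cores each, a count reached by 0.506% of all protein-coding promoters. ALDOA and GAPDH held 2, and PFKFB4, whose peak ranked 4, held 1. Without a HIF-1α peak there, PDK1 and PFKFB3 held 3 each, a count that 6.1% of promoters reach or exceed, GPI held 1 and SLC2A1 held 0. At least 1 core is present in 52.9% of all protein-coding promoters. The other form of the core, GCGTG, was present in 10 of the 10 member promoters and in 76.3% of all.

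The rest of the pathway was represented by a list of 33 other genes, with isoenzymes of each step, kinases, and glucose and lactate carriers. A HIF-1α peak in the gene or within 20 kb was found at 5 of them, a HAUSP peak of H1299 at 7 and a HAUSP peak of MDA-MB-231 at 5, against 9.55%, 6.30% and 4.16% of all protein-coding genes. At promoters, 2 of the 33 had a HIF-1α peak, 1 a HAUSP peak of H1299 and 1 a HAUSP peak of MDA-MB-231, and none had peaks of all 3 lists. No peak of any list was assigned to TPI1, the triose phosphate isomerase, or to the phosphofructokinase genes PFKL and PFKM. PFKP, the third of these, had an intronic HAUSP peak of MDA-MB-231 with a score of 76.87.

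PGAM1 had a HIF-1α peak at its promoter, on chromosome 10 from 99185601 to 99186147, with a score of 262.83 and rank 23. The HAUSP peak of MDA-MB-231 over it, from 99185409 to 99186239, was low, with a score of 65.43 and rank 845, and the nearest HAUSP peak of H1299 was 106640 bp from the TSS. HK2, a hexokinase, had a HAUSP peak of H1299 at the promoter (score 133.92, rank 256) and no peak in the other lists. SLC2A3, another glucose transporter, had a HIF-1α peak of score 188.24 and rank 33 that overlapped HAUSP peaks of both lines, but it lies 34376 bp upstream of the main TSS, inside the annotated gene. LDHC, a testis lactate dehydrogenase, came under the rule only through the LDHA peaks, whose near edges are at least 17263 bp from its TSS. PKM, the pyruvate kinase, was singled out after its values were seen. Its intron held a HIF-1α peak of score 63.21, rank 895, 4120 bp after the TSS, inside HAUSP peaks of H1299 (score 259.57, rank 105) and MDA-MB-231 (score 136.64, rank 256). A second PKM peak of HIF-1α, of score 61.36, touched the promoter and overlapped no HAUSP peak.

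**Figure D3:**
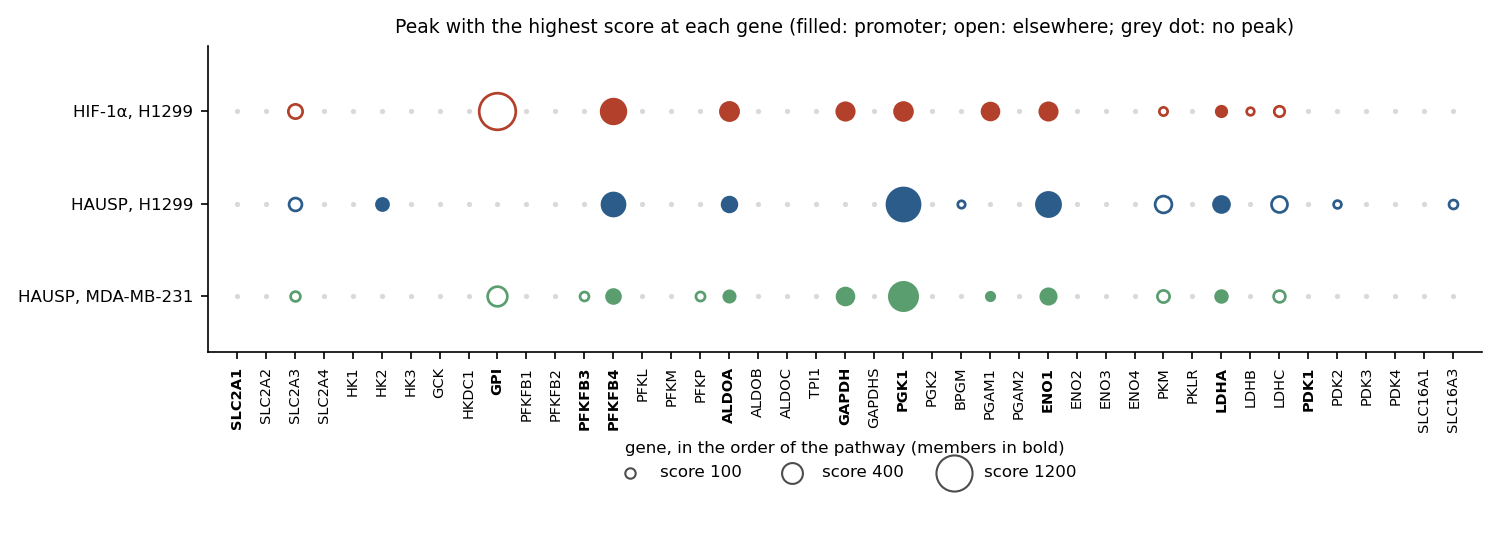
The peak with the highest score assigned to each of the 10 members (bold) and 33 other genes, in the order of the pathway, with 1 row for each list. Circle area is proportional to the score, filled circles are peaks at the promoter, open circles lie elsewhere, and grey dots are genes without a peak; filled circles in all 3 rows are seen for PFKFB4, ALDOA, PGK1, ENO1 and LDHA.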

How the data were processed

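Reads were aligned by the authors to hg19 using Bowtie 0.12.7, and MACS 1.4.2 was run with its default settings. The deposited lists, 1 for each library, hold peak positions and the MACS score. The control used for calling is not given in the sources used here, and depth was not analysed here.

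Starts were converted to count from 1, and chromosome names, which lack a prefix in the HIF-1α list, were made uniform. Genes, transcripts and sequence were taken from GENCODE release 44 mapped to GRCh37, which has the coordinates of hg19. The TSS of a gene was that of its MANE Select transcript, or of the Ensembl canonical transcript where there was none. Overlap meant at least 1 bp. Flanks had the width of the peak and began 2000 bp from it. The interval and pattern steps were tested on simulated data.

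The members and the list of 33 other genes were chosen with earlier results of these data known. Named in the text are the members, other genes of the list with a HIF-1α score of at least 100 or a HAUSP peak at the promoter, and genes whose TSS lies inside a member peak. ATP7A, TLCD3B, TPI1, PFKL, PFKM, PFKP and PKM were named after their values were seen. Versions were samtools 1.23.1, pysam 0.24.0, pandas 2.3.3, numpy 2.4.6, matplotlib 3.10.9 and Python 3.11.15. Alternatives varied the window, TSS, minimum score, overlap, promoter width and form of the core.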

Additional observations from a re-analysis of the deposited data

How the results depend on the processing

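The counts of members with a peak, of member HIF-1α peaks that overlap HAUSP, of peaks at promoters and of peaks with the core moved by at most 2 under the 30 alternatives run. Member HIF-1α peaks that overlapped HAUSP numbered 7 with the HAUSP list of MDA-MB-231 in place of 5 with that of H1299. Members with a HIF-1α peak numbered 7 and members with a HAUSP peak of H1299 numbered 5 with windows of 5 and 50 kb, with the 5′ end of the gene as the TSS, without the gene body, with scores of at least 100 and with the peak centre. Members with a HAUSP peak of MDA-MB-231 numbered 7 in place of 8 with scores of at least 100, which removed PFKFB3. Promoter peaks of HIF-1α numbered 7 in place of 6 when the TSS of any transcript was accepted, which added GPI. The core was held by 6 in place of 7 HIF-1α peaks when the search was limited to 100 bp on either side of the centre, which removed GAPDH. No paired analysis was possible because there was 1 library in each group. Without replicates or depth, a missing peak cannot be told apart from one below the threshold of the caller.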

Other observations

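The 3 member peaks that were far from the main TSS and alone in their place held no core. A core was present in 59.2% of all HAUSP peaks of MDA-MB-231, 63.5% of those of H1299 and 20.7% of all HIF-1α peaks. The intronic GPI peak and the distal ALDOA peak of the HAUSP lists and the distal PGK1 peak of HIF-1α had scores of 81.12, 64.81 and 52.74. They overlapped no peak of another list and had a GC content of 49.3%, 47.4% and 35.0%. The HIF-1α peaks of the 7 genes, without that distal peak, had a GC content from 62.4% at PFKFB4 to 70.3% at ALDOA, against a median of 36.6% for all HIF-1α peaks, 51.3% for those scoring 100 or more and 61.2% for promoters. The PFKFB3 peak of HAUSP in MDA-MB-231, with a score of 74.05, held 2 cores and had a GC content of 62.3%.

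The forms of the core differed between the members. GCGTG occurred at 8 places in the HIF-1α peak of GPI, 5 in those of GAPDH and ENO1, and 3 in that of PFKFB4. It occurred at 2 places in the promoter peak of PGK1, 1 in that of LDHA and 0 in that of ALDOA. These counts were not adjusted for peak width or GC content. GCGTG was present in 6 of the 8 member peaks, against 12.7% of all HIF-1α peaks and 55.6% of those scoring 100 or more. The palindrome CACGTG made up 5 of the 23 cores, and these were 1 at GPI, 2 at ENO1 and 2 at LDHA. ATGGC, another pattern searched on both strands, was present in 7 of the 8 member HIF-1α peaks and in 60.1% of all HIF-1α peaks. It was present in 67.9% of those scoring 100 or more and in 61.1% of flanks. Within 100 bp on either side of the peak centre, 2 of the 8 held it, against 27.9% of all HIF-1α peaks. At promoters it was present in 8 of the 10 members and 78.1% of all protein-coding genes.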
